A study of Mus musculus with 2 samples.

Results

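The laminin chains are the genes for the subunits of laminin, the protein that organises every basement membrane. They comprise 5 alpha chains (Lama1, Lama2, Lama3, Lama4 and Lama5), 3 beta chains (Lamb1, Lamb2 and Lamb3) and 1 gamma chain (Lamc1). These 9 genes were taken by symbol from the 32285 genes of the count tables, and each symbol matched 1 identifier. They were described in newborn mouse kidney across cell classes that had been gated with marker genes, none of which encodes a laminin chain. Single-cell RNA sequencing counted unique molecular identifiers (UMIs) at the 3′ ends of transcripts on the 10x Chromium system. Both libraries came from kidneys at postnatal day 0 with the genotype label Rbpj c/+ ; Foxd1cre/+, so they formed 1 group with n = 2. Foxd1 is a gene of kidney stromal progenitors, and its Cre would act in stroma and its descendants on the single conditional Rbpj copy. Every sample carried these alleles, no other genotype was analysed here, and whether each library came from 1 animal or several is not given in the sources used here. The p-values below therefore rest on these 2 libraries only. They measure the spread left between the libraries within classes after an overall library difference was removed.

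A laminin is a trimer of 1 alpha, 1 beta and 1 gamma chain, assembled before secretion. The alpha chain carries the domains bound by integrins and dystroglycan, and the short arms of the 3 chains join laminins into a network on the cell surface. In kidney development the trimer with alpha 1, beta 1 and gamma 1 chains appears when mesenchyme becomes epithelium. The glomerular basement membrane later exchanges its chains until alpha 5 and beta 2 predominate, and loss of LAMB2 in people causes congenital nephrotic syndrome. Lama2 is the muscle laminin alpha chain whose loss causes a muscular dystrophy, and Lama4 is the alpha chain of vessel walls. Lama3 and Lamb3 encode chains of the epithelial anchoring laminin.

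After filtering, 9348 cells remained, 5284 in replicate 1 and 4064 in replicate 2, and 7772 of them (83.14%) received a class. The libraries held 200331687 and 173166168 UMIs over all barcodes, and the kept cells had a median of 14730.5 and 19784 UMIs. Only 6 cell barcodes occurred in both libraries. There were 14 classes with at least 20 cells in each library, from 23 smooth muscle cells to 770 stromal cells. Each had at least 2 of its own markers and none of another class among its 10 leading genes. The same markers had set the classes, so this follows largely from the gating and is no independent check. Urothelium, with 6 and 7 cells, was too small for the tests. Levels are given as counts per 1000000 UMIs of the class (CPM), first in replicate 1 and then in replicate 2. Since 3′ counts were not divided by length, CPM was compared between classes for 1 gene, and shares of UMIs were used between chains.

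The 4 upstream windows shown here belong to the alpha chains Lama2 and Lama5 and the beta chains Lamb1 and Lamb2. RefSeq promoters on GRCm38 were at hand for 5 of the 9 genes. Each full window ends at the RefSeq start, on the gene's own strand. Its longest stretch outside annotated exons is shown, so the Lamb1 and Lamb2 sequences stop before that start. The Lama2 window lies inside the longer GENCODE gene model. Capitals mark the GC box, searched as GGGCGG or its reverse complement CCGCCC.
Lama2 (chr10:27616943-27617192, minus strand): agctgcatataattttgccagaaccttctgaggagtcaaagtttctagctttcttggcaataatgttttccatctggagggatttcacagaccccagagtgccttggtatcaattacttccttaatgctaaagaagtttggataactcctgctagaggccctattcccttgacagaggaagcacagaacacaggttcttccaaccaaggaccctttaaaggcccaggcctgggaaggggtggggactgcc
Lama5 (chr2:180225860-180226109, minus strand): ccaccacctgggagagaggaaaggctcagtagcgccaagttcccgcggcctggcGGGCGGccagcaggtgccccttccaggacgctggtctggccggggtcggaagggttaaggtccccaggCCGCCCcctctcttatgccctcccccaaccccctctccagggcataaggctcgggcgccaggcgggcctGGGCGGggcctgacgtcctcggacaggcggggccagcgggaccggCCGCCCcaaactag
Lamb1 (chr12:31265043-31265233, plus strand): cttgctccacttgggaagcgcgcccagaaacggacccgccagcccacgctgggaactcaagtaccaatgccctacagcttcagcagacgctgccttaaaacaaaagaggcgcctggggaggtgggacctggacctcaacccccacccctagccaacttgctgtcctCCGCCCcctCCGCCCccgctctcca
Lamb2 (chr9:108479612-108479735, plus strand): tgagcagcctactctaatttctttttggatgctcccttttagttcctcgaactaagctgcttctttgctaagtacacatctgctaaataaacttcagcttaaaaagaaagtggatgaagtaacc
The Lama5 window held 4 GC boxes, the Lamb1 window held 2, and the windows of Lama2 and Lamb2 held 0. Over all 32851 RefSeq windows of 250 bases, 32.74% held at least 1. Before exons were left out, CpG pairs numbered 19 upstream of Lama5 and 14 upstream of Lamb1, against 3 for Lamb2, 0 for Lama2 and a median of 6.0 over all windows. A match is a description of the letters only, and the AGATAA motif (or TTATCT), present in 9.99% of windows, was in none of them.

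Lama1, the alpha chain of the earliest nephron epithelium, lies on chromosome 17 (GRCm38, 67697259 to 67822647, plus strand). Its level was 405 and 385 CPM in early nephron cells, which include renal vesicle and S-shaped body stages. It was 249 and 244 CPM in loop of Henle, 168 and 173 CPM in proximal tubule and 128 and 106 CPM in distal convoluted or connecting tubule. The ureteric epithelium held less, with 98.9 and 100.2 CPM in the tip and 59.5 and 66.1 CPM in collecting duct. Those 6 epithelial classes kept this order in both libraries without overlap. Nephron progenitors had 8.46 and 10.9 CPM, podocytes 7.49 and 15.2 CPM, and macrophages, at the bottom, 0.717 and 1.11 CPM. Set against the average of the remaining classes, Lama1 was higher in early nephron by 4.02 ± 0.11 (log2 fold change ± SE; edgeR quasi-likelihood test, adjusted p = 5.4e-16). In the same test it was higher in 6 of 14 classes and lower in 6. In barcodes with under 100 UMIs, which hold free RNA, Lama1 stood at 78.9 and 75.9 CPM, above the level in progenitors, podocytes and all stromal classes. With free RNA subtracted, 5 of the 6 lower calls of Lama1, all but that in macrophages, did not pass. The subtraction took 6.03% of UMIs in replicate 1 and 1.28% in replicate 2. The part of this unequal subtraction in calls lost here and below was not tested.

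Lama2, on chromosome 10 (26980036 to 27619758, minus strand), was a stromal chain. It measured 260 and 278 CPM in stroma, 157 and 148 CPM in pericyte or mesangial cells, and at most 9.15 CPM in any epithelial class, endothelium or macrophages. Smooth muscle was uneven, with 97.95 and 267.6 CPM. In replicate 2, 56 of the 105 smooth muscle UMIs came from 1 cell, and the level without that cell was 134 CPM. The log2 fold change against the other classes was 6.12 ± 0.18 in stroma, 5.20 ± 0.21 in pericyte or mesangial cells and 5.40 ± 0.32 in smooth muscle (edgeR adjusted p = 1.5e-16, 2.2e-14 and 2.1e-11). Lama2 was lower in 5 classes, of which podocytes passed by a narrow margin (log2 fold change -1.36, edgeR adjusted p = 0.043) on 13 and 8 UMIs, and did not pass with a stricter gate. With Leiden clusters the sign of the podocyte difference turned, to 2.19. Both of these fits lacked smooth muscle, and the Leiden fit also held erythroid cells. Their mean of the other classes was therefore not that of the main fit. With free RNA subtracted none of the 5 lower calls passed, while the 3 higher calls held.

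Lama3 was largely an endothelial chain among the fitted classes, with 115 and 94.4 CPM in endothelium. Of all the other fitted classes, none exceeded 27.8 CPM, the value of macrophages in replicate 2, where replicate 1 had 12.9 CPM. Free RNA stood at 11.6 and 8.35 CPM. Lama3 was also found in the few urothelial cells, with 6 and 21 UMIs or 39.0 and 110.6 CPM. Ureteric tip held 0 UMIs in both libraries, so its level was at least 29.76-fold below the average of the remaining classes, with 3 counts over both libraries as the floor. Fold changes against a mean that includes a class at 0 depend on the prior count, so Lama3 was also fitted without ureteric tip and smooth muscle, an alternative chosen after seeing the data. There Lama3 was higher in endothelium by 5.71 ± 0.21 (edgeR adjusted p = 2.0e-14), followed by 3.03 in macrophages and 2.07 in pericyte or mesangial cells.

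Lama4, on chromosome 10 (38965515 to 39110188, plus strand), marked endothelium and the cells around it. Its level was 209 and 227 CPM in endothelium, 163 and 150 CPM in pericyte or mesangial cells, 123 and 137 CPM in stroma and 105 and 99.4 CPM in smooth muscle. Among epithelia it was present in early nephron, where the libraries differed, with 159 and 91.6 CPM. Podocytes had 33.9 and 19.2 CPM and ureteric tip 19.5 and 18.4 CPM, both under the free RNA level of 60.4 and 40.0 CPM. All mature tubule and duct classes were between 0.426 and 2.96 CPM, far below that level. Lama4 was higher than in the other classes by 4.29 ± 0.14 in endothelium and 3.23 ± 0.15 in early nephron, and the difference was -3.32 ± 0.33 in proximal tubule (log2 fold changes; edgeR adjusted p = 1.2e-16, 3.4e-13 and 1.9e-08). The call in proximal tubule, on 25 and 17 UMIs, did not pass with free RNA subtracted.

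Lama5, on chromosome 2 (180176373 to 180225859, minus strand), had its highest levels in collecting duct, with 239 and 220 CPM, and in podocytes, with 157 and 169 CPM. The libraries of these classes did not overlap each other or any lower class. Ureteric tip had 92.0 and 99.9 CPM, smooth muscle 66.4 and 129.99 CPM, and endothelium 43.8 and 47.7 CPM. Stroma was the lowest fitted class with 2.48 and 2.57 CPM, under the free RNA level of 40.6 and 44.2 CPM. The log2 fold change against the other classes was 2.85 ± 0.13 in collecting duct, 2.38 ± 0.14 in podocytes and -4.11 ± 0.28 in stroma (edgeR adjusted p = 2.4e-13, 1.2e-11 and 7.8e-11). In endothelium the log2 difference for Lama5 was 0.44 (edgeR adjusted p = 0.033), a call that was lost with DESeq2 or its size factors.

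**Figure D1:**
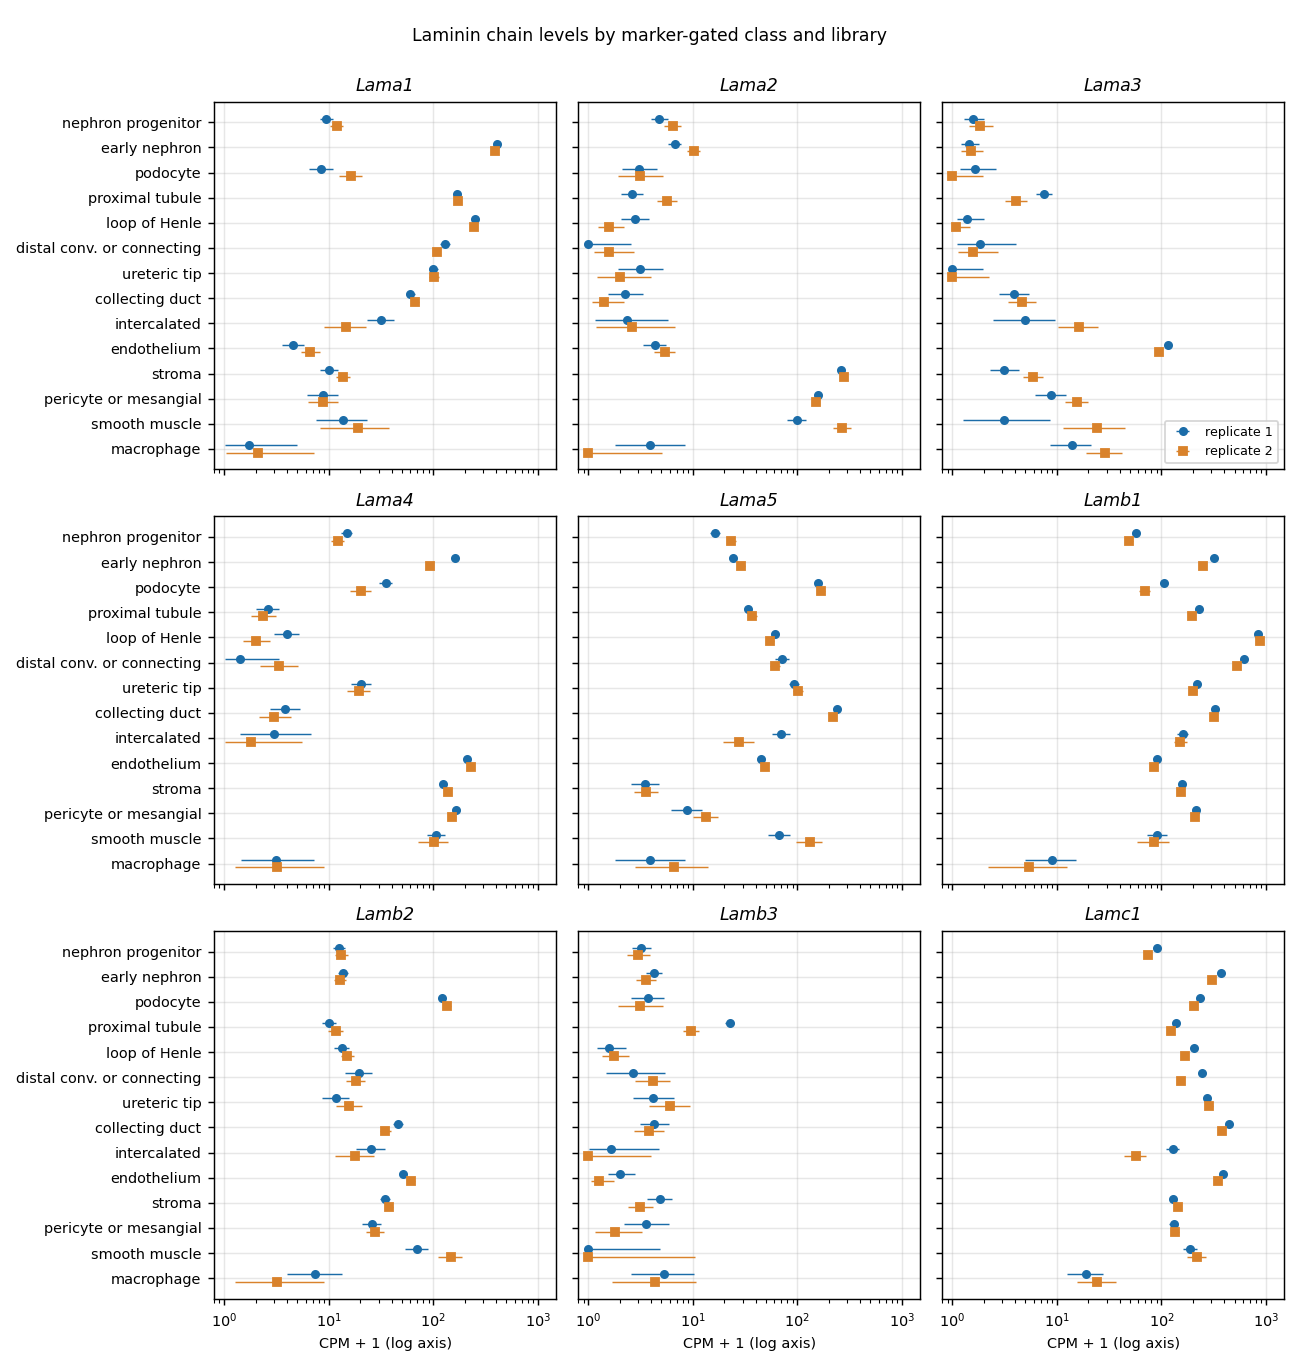
Level of each laminin gene as CPM plus 1 on a log axis (horizontal) in the 14 fitted classes (vertical), with 1 point for each library and exact 95% Poisson intervals that cover counting error only. Lama2 separates the 3 stromal and mural classes from the rest, Lama3 peaks in endothelium at 115 and 94.4 CPM, and Lamb1 peaks in loop of Henle at 836 and 876 CPM.

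Among the beta chains, Lamb1, the widespread chain on chromosome 12 (31265234 to 31329644, plus strand), was highest in loop of Henle with 836 and 876 CPM. Distal convoluted or connecting tubule followed with 614 and 521 CPM, and collecting duct with 322 and 316 CPM. Early nephron had 319 and 250 CPM and proximal tubule 226 and 195 CPM, next to pericyte or mesangial cells with 212 and 208 CPM. Collecting duct and early nephron overlapped between libraries, as did proximal tubule, pericyte or mesangial cells and ureteric tip. Podocytes had 106 and 68.3 CPM, nephron progenitors 56.4 and 48.3 CPM and macrophages 7.88 and 4.45 CPM. Free RNA held Lamb1 at 167 and 163 CPM, above these classes and above intercalated cells, stroma, smooth muscle and endothelium. The log2 fold change of Lamb1 against the other classes was 2.81 ± 0.08 in loop of Henle and 2.21 ± 0.08 in distal tubule (edgeR adjusted p = 4.0e-17 and 6.2e-15).

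Lamb2, the beta chain of the mature glomerular filter and of the neuromuscular junction, lies on chromosome 9 (108479736 to 108490530, plus strand). It measured 120 and 135 CPM in podocytes and 68.5 and 145.3 CPM in smooth muscle, so these classes overlapped. Endothelium held 49.9 and 60.8 CPM, collecting duct 44.8 and 33.8 CPM and stroma 33.4 and 36.6 CPM. Every other fitted class was at most 26.8 CPM, with free RNA at 29.9 and 29.2 CPM. Lamb2 was higher than in the other classes by 2.67 ± 0.12 in podocytes, 2.28 ± 0.20 in smooth muscle and 1.41 ± 0.13 in endothelium (log2 fold changes; edgeR adjusted p = 6.5e-14, 1.6e-08 and 6.7e-09).

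The balance between the beta chains was followed as the Lamb2 share of Lamb1 plus Lamb2 UMIs, a description with no test. In podocytes it was 53.1% (exact 95% interval 50.5 to 55.8%) and 66.4% (63.0 to 69.8%), a mean of 59.8% ± 9.41 (SD, n = 2). Smooth muscle had shares of 43.0% and 63.3% on 151 and 90 UMIs, and endothelium 35.8% and 41.8%. Nephron progenitors had 17.0% and 20.2%, and the share was lower in early nephron, with 3.84% and 4.52%. It stood at 3.86% and 5.16% in proximal tubule and 1.44% and 1.57% in loop of Henle. With only cells of at least 10000 UMIs, the podocyte share in replicate 1 was 46.6% (43.7 to 49.6%), below the point at which both chains have equal UMIs. With classes taken from Leiden clusters instead of gates, the podocyte share was 34.24%. Those clusters held 462 and 252 cells against 346 and 182 in the gate, and the part of this difference in the share was not tested.

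**Figure D2:**
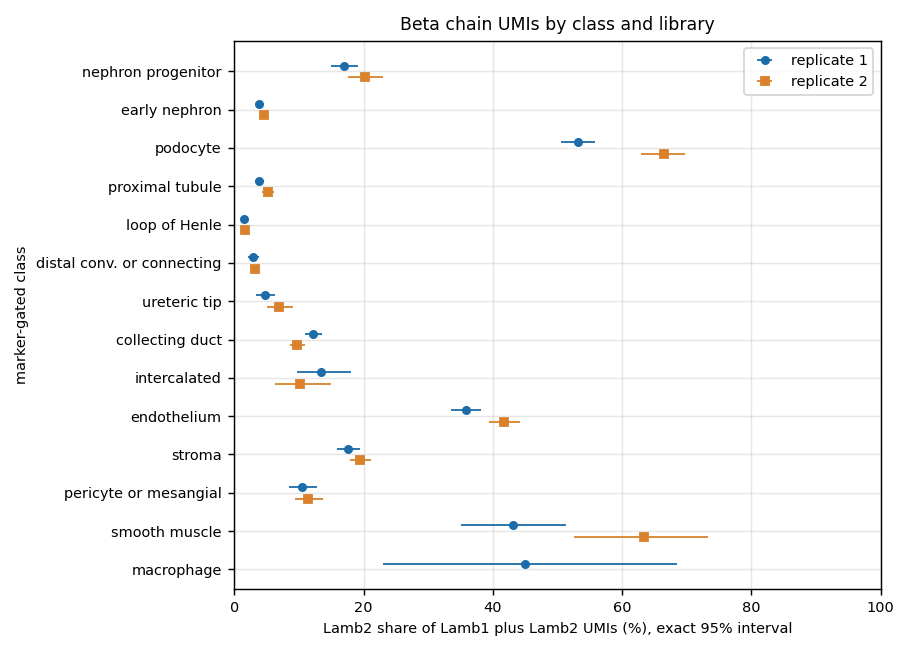
Lamb2 share of Lamb1 plus Lamb2 UMIs in percent (horizontal, exact 95% binomial intervals) in each class (vertical) and library; macrophages of replicate 2 had too few UMIs to be drawn. Podocytes, at 53.1% and 66.4%, stand far to the right of early nephron, at 3.84% and 4.52%.

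Lamb3, on chromosome 1 (193207699 to 193343878, plus strand), was scarce in the fitted classes. Proximal tubule had 21.5 and 8.57 CPM, ureteric tip 3.20 and 5.03 CPM, and smooth muscle 0 UMIs in both libraries. Free RNA stood at 8.29 and 5.16 CPM. The 13 urothelial cells gave 12 and 20 UMIs, or 77.9 and 105.4 CPM, which is the highest level of Lamb3 in any class but comes from few cells. Fitted without ureteric tip and smooth muscle, Lamb3 was higher in proximal tubule by 3.26 ± 0.22 (log2 fold change; edgeR adjusted p = 2.3e-10). The Lamb3 locus overlaps Hsd11b1 and G0s2 on the opposite strand and 4930570N18Rik on its own strand, without shared exons. Exons of Lama2 overlap those of Gm48084, and exons of Lama3 those of Gm29200, both on the opposite strand. Whether the counting used strand is not given in the sources used here.

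Lamc1, the gamma chain shared by most laminins, lies on chromosome 1 (153218922 to 153332786, minus strand) and was the most evenly spread member. Collecting duct had 446 and 378 CPM, endothelium 385 and 344 CPM and early nephron 373 and 305 CPM, and these classes overlapped in turn. Ureteric tip had 272 and 287 CPM and podocytes 232 and 204 CPM. Stroma, pericyte or mesangial cells and proximal tubule lay between 123 and 141 CPM. Nephron progenitors had 89.4 and 74.0 CPM and macrophages 17.9 and 23.4 CPM, against 176 and 118 CPM in free RNA. The median absolute log2 difference over the 14 class comparisons was 0.571 for Lamc1 and 3.075 for Lama4. Its largest rise was 1.39 ± 0.12 in collecting duct (edgeR adjusted p = 2.8e-09).

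The makeup of the alpha chains was described as shares of their UMIs, without a test. In early nephron, Lama1 made up 68.3% and 74.9% of alpha chain UMIs and Lama4 26.8% and 17.8%. In podocytes Lama5 made up 78.1% and 82.2%. Proximal tubule and loop of Henle stayed with Lama1, at 80.0% and 79.2% and at 79.4% and 81.4%, with Lama5 next. Ureteric tip was split between Lama1 (46.6% and 45.6%) and Lama5 (43.3% and 45.5%), and in collecting duct Lama5 took 78.2% and 75.3%. Stroma was made of Lama2 (65.4% and 63.8%) and Lama4 (31.1% and 31.5%), and pericyte or mesangial cells of nearly equal shares of both. Endothelium combined Lama4 (55.9% and 59.9%) with Lama3 (30.6% and 24.9%) and Lama5 (11.7% and 12.6%). Nephron progenitors had only 42.1 and 50.8 CPM over all 5 alpha chains, and early nephron 594 and 515 CPM. These shares count 3′ ends and are not shares of protein.

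**Figure D3:**
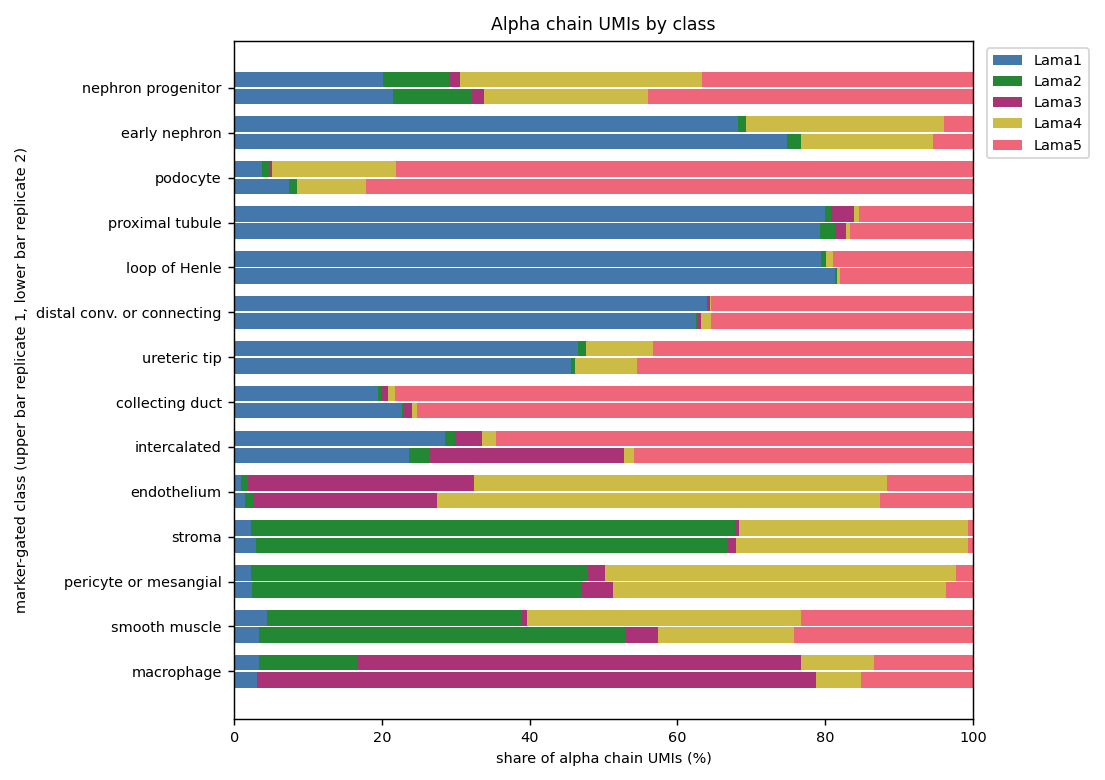
Share of alpha chain UMIs in percent (horizontal) held by each alpha chain in each class (vertical), with replicate 1 above replicate 2. Lama1 fills 68.3% and 74.9% of early nephron, Lama5 78.1% and 82.2% of podocytes, and Lama2 65.4% and 63.8% of stroma.

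Over all class comparisons, 84 of 126 member tests passed the threshold of an adjusted p of 0.05 (46 higher, 38 lower, 66.7%), against 43.5% of the tests over all 17511 genes. The median absolute log2 difference was 1.38 for the members and 0.631 over all genes. Without Lama3 and Lamb3, 77 of 98 passed. With free RNA subtracted 64 of 126 passed, in a separate fit whose share over all genes was not computed, so the 43.5% does not serve for it. Nephron progenitors had 5 members called, all of them lower (51.9% of all genes called there), with Lama1 at -1.67, Lamb1 at -1.64 and Lamc1 at -1.09. Macrophages had 7 called, of which only Lama3 was higher (43.6% of all genes). Early nephron had 6 called, 4 of them higher (48.1%), and podocytes 7, with 4 higher (47.7%). Proximal tubule had 6, with 4 higher (53%), loop of Henle 6, with 3 higher (44.3%), and distal convoluted or connecting tubule 6, with 4 higher (45.1%). In the ureteric tree 7 were called in the tip, with 4 higher (40.1%), 7 in collecting duct, with 5 higher (37.2%), and 3 in intercalated cells (34.2%). Endothelium had 7 called, with 5 higher (50.6%). Stroma had 5, with 3 higher (48.2%), and pericyte or mesangial cells 7, with 4 higher (42.2%). Smooth muscle, with 71 and 23 cells, had 5 called, with 4 higher (23.5%). Scaling by DESeq2 size factors moved the median of all genes there by 0.15 on the log2 scale, less than any called difference of a member in that class.

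**Figure D4:**
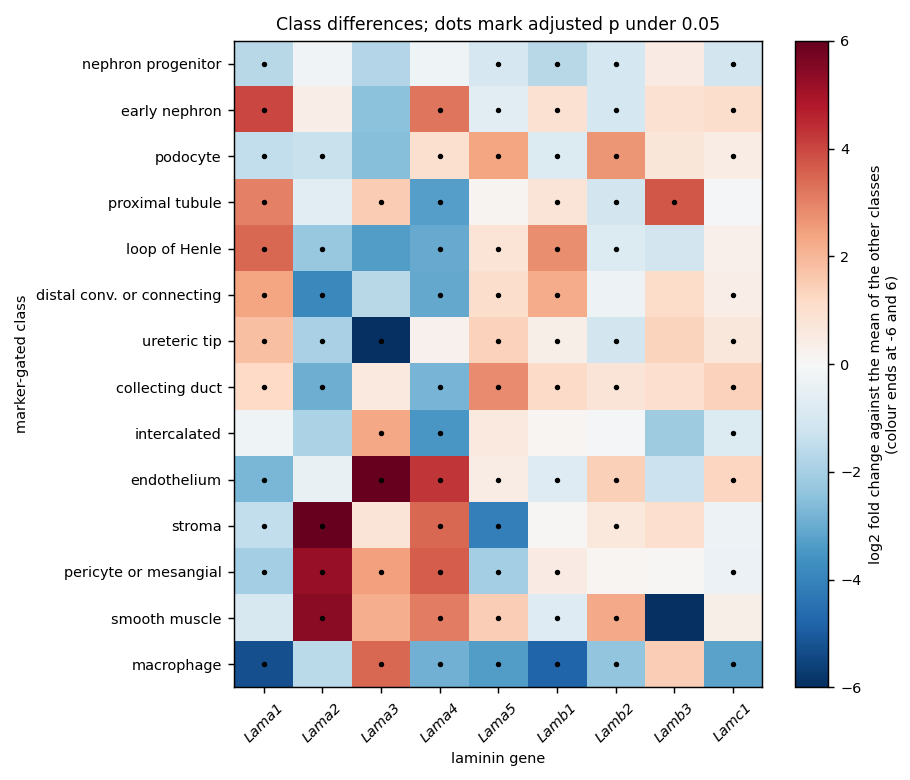
Log2 fold change of each laminin gene (columns) in each class (rows) against the mean of the other classes, with colour ending at -6 and 6 and dots where the edgeR adjusted p is under 0.05. Lama1 is raised in the tubule classes (4.02 in early nephron) and Lama2 in stroma (6.12); Lama3 and Lamb3 values rest on a mean that includes a class at 0.

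From nephron progenitor to early nephron, 4 members rose and 0 fell, where 30.1% of all genes changed. Lama1 rose by 5.28 ± 0.23, Lama4 by 3.22 ± 0.24, Lamb1 by 2.36 ± 0.14 and Lamc1 by 1.98 ± 0.18 (log2 fold changes; edgeR adjusted p = 7.4e-13, 1.2e-09, 5.7e-11 and 3.4e-08). Those are an alpha, a beta and the gamma chain of the early epithelial laminin, with Lama4 beside them. Lama5 differed by 0.37 (adjusted p = 0.25) and Lamb2 by -0.02 (adjusted p = 0.95) in the same edgeR fit.

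Podocytes differed from early nephron in 7 of 9 members, where 54.5% of all genes did. Lama5 was higher by 2.79 ± 0.23 and Lamb2 by 3.48 ± 0.20, while Lama1 fell by 5.09 ± 0.25, Lama4 fell by 2.09 ± 0.24 and Lamb1 fell by 1.60 ± 0.14 (log2 fold changes; edgeR adjusted p = 3.1e-09, 1.7e-11, 9.8e-13, 2.5e-07 and 6.0e-09). On the CPM scale Lama1 was at 405 and 385 in early nephron and at 7.49 and 15.2 in podocytes. Lamc1 fell by 0.53 (edgeR adjusted p = 0.017), a call that did not pass without the library term. The remaining call was Lama2, at -1.65 (edgeR adjusted p = 0.014), which turned to 3.05 with Leiden clusters.

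In the tubule branches, loop of Henle had more Lamb1 (1.77 ± 0.14) and Lama5 (1.33 ± 0.23) than early nephron and less Lama4 (-5.82 ± 0.31), in log2 fold changes with edgeR adjusted p of 1.4e-09, 5.0e-05 and 8.2e-12. In all, 7 members were called there, where 52.1% of all genes were. Proximal tubule likewise had 7 called, where 57.3% of all genes were. Lama4 was again lower there (-6.07 ± 0.31), Lama1 was lower (-0.92), and the scarce chains Lama3 (3.71) and Lamb3 (2.62) were higher (edgeR adjusted p = 1.5e-12, 2.8e-04, 1.9e-05 and 7.9e-07). The Lama1 call did not pass with free RNA subtracted. Lamb2 differed by -0.03 in proximal tubule and 0.26 in loop of Henle (edgeR adjusted p = 0.91 and 0.31).

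Collecting duct against ureteric tip asked how the stalk epithelium differs from its growing end, and 7 members were called where 32.9% of all genes were. Lama5 was higher by 1.37 ± 0.23, Lamb2 by 1.76 ± 0.24 and Lamb1 by 0.73 ± 0.14, while Lama4 was lower (-2.84 ± 0.37), in log2 fold changes (edgeR adjusted p = 7.2e-05, 7.5e-06, 2.8e-04 and 4.4e-06). Lama1 differed by -0.55 (edgeR adjusted p = 0.040), which did not pass without the library term. Lama3 was at least 7.283-fold higher in collecting duct, on 48 UMIs against 0 in the tip.

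Within the interstitium, pericyte or mesangial cells differed from stroma in 2 members where 11.1% of all genes did. Lama5 was higher by 1.94 ± 0.38 (edgeR adjusted p = 0.0014), from 2.48 and 2.57 CPM to 7.78 and 12.2 CPM. The pericyte or mesangial sums held 27 and 47 Lama5 UMIs, and both classes were under its free RNA level of 40.6 and 44.2 CPM. Haemoglobin in pericyte or mesangial cells stood at 95.4% and 17.19% of its level in free RNA, against 6.46% and 10.43% in stroma. The part of free RNA in this difference was not tested. Lama3 differed by 1.59 (edgeR adjusted p = 0.048), a call lost with DESeq2 and without the library term. Smooth muscle differed from stroma in 4 members where 16.8% of all genes did, among them Lama5 by 5.20 ± 0.36 and Lamb2 by 1.53 ± 0.23 (edgeR adjusted p = 3.1e-09 and 9.0e-05). In smooth muscle, 1 cell held 16 of the 63 Lama5 UMIs of replicate 1, and 1 cell held 17 of the 51 of replicate 2. For Lamb2 the highest cell held 8 of 65 and 15 of 57 UMIs. Lamb1 was lower (-0.78) and Lamc1 higher (0.59) (edgeR adjusted p = 0.0024 and 0.049), the latter not without the library term. Lama2 differed by -0.67 in that comparison (edgeR adjusted p = 0.18), and 1 cell held 56 of its 105 smooth muscle UMIs in replicate 2.

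Endothelium and stroma differed in all 9 members, where 44.2% of all genes did. Lama3 (4.94 ± 0.43), Lama5 (4.23 ± 0.30) and Lamc1 (1.49 ± 0.18) were higher in endothelium, with Lama4 (0.80) and Lamb2 (0.72), and Lama2 (-6.09 ± 0.38) and Lamb1 (-0.76 ± 0.14) were lower (log2 fold changes; edgeR adjusted p = 7.4e-09, 2.8e-10, 7.8e-07, 0.0040, 0.0038, 3.3e-11 and 9.4e-05). Lama1 (-1.20) and Lamb3 (-2.14) were lower as well, from low levels in both classes (edgeR adjusted p = 6.4e-04 and 0.0026). With free RNA subtracted, the calls of Lama4 and Lama1 did not pass. Lama5 in endothelium, at 43.8 and 47.7 CPM, lay close to its free RNA level of 40.6 and 44.2 CPM. Haemoglobin in endothelium stood at 32.39% and 31.17% of its level in free RNA, against 6.46% and 10.43% in stroma. The subtraction took only 6.03% and 1.28% of UMIs. The part of free RNA in these differences was not tested. Over the 8 lineage comparisons, 47 of 72 member tests passed (26 higher, 21 lower), against 37.4% over all genes. The median absolute log2 difference was 0.955 for the members and 0.577 over all genes.

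Several classes were uneven inside, and they were divided by single genes chosen after the values were seen, so the following is a description without a test. Endothelial cells with a UMI of Gja5, a connexin of arterial endothelium, numbered 62 and 53. They held Lama3 at 350 and 354 CPM, against 55.2 and 48.1 CPM in the other endothelial cells. Lama4 went the other way, with 96.5 and 68.2 CPM against 238 and 256 CPM. Lama5 was 83.9 and 90.8 CPM with Gja5 and 33.6 and 40.0 CPM without it, and Lamb2 81.8 and 104.9 against 41.9 and 52.9 CPM. Cells with Gja5 were deeper, with a median of 24436 and 20686 UMIs against 10446 and 12935. The part of depth in these values was not tested.

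Early nephron cells with a UMI of Wt1, the transcription factor of the podocyte lineage, held Lama4 at 225 and 131 CPM, against 27.0 and 10.52 CPM without it. Lama1 was 333 and 340 CPM with Wt1 and 550 and 478 CPM without. Cells with Wt1 had a median of 24606 and 42116 UMIs, against 21156 and 32906 without it. In stroma Lama2 was 172 and 231 CPM in cells with Foxd1, 295 and 321 CPM in cells with Penk but no Foxd1, and 438 and 461 CPM in cells with neither. Over these stromal groups the median depth fell, with 11823 and 16798, 10901 and 15944, and 9582 and 13059 UMIs. The part of depth in the Wt1 and stromal values was not tested. Both Foxd1 and Penk had also served as gate markers. Pericyte or mesangial cells with Gata3, a factor of mesangial cells, held less Lama2 (90.8 and 71.9 CPM) than those without (232 and 212 CPM), and more Lama5 (11.9 and 20.5 CPM against 3.09 and 5.27 CPM). These Lama5 levels were all under its free RNA level of 40.6 and 44.2 CPM.

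**Figure D5:**
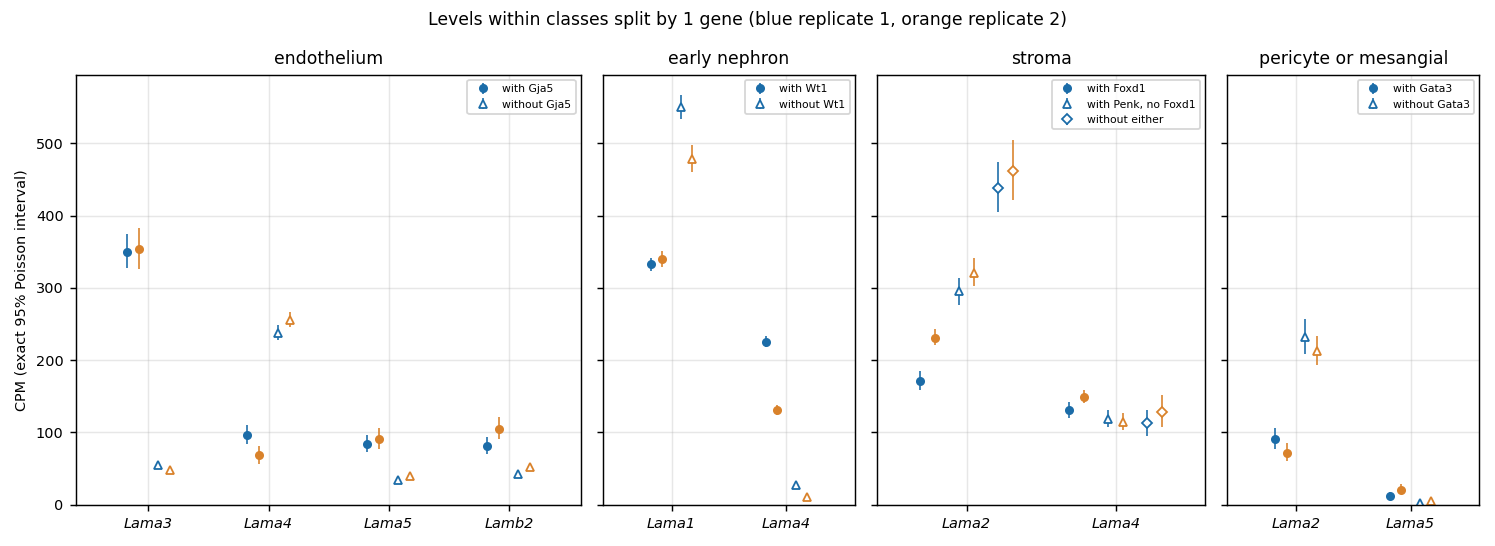
Level in CPM (vertical, exact 95% Poisson intervals) of laminin genes within 4 classes split by the detection of 1 or 2 other genes, with filled symbols for cells with the gene and open symbols for cells without it, and colours for the libraries. Lama3 stands at 350 and 354 CPM in endothelium with Gja5 and at 55.2 and 48.1 CPM without it.

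The other genes of the basement membrane pathway were read from 4 lists of 42 genes, which had been chosen with earlier results of these data known. Over the 14 class comparisons, 410 of 588 tests passed (69.7%, against 43.5% over all genes). Of the 4 other laminin and netrin chains, 26 tests were higher and 17 lower of 56. Of the 21 linkers and other basement membrane proteins, 120 were higher and 109 lower of 294. The 10 laminin receptors gave 55 higher and 40 lower of 140, and the 7 genes that glycosylate dystroglycan, a laminin receptor, 23 higher and 20 lower of 98. The median absolute log2 differences of these lists were 2.042, 1.485, 1.014 and 0.347.

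In podocytes the largest rises among these genes were Col4a3 (6.32) and Col4a4 (5.04), the collagen IV chains of the mature glomerular filter, in log2 fold changes called by edgeR as are all values in this paragraph. In the same cells the netrin Ntn1 fell by 2.88. In early nephron Lamc3 (2.70) and Tinag (2.67) rose. Proximal tubule had Tinag, a tubular basement membrane antigen, higher by 6.43 and nephronectin, Npnt, by 3.82. In collecting duct Npnt was higher by 4.02. Loop of Henle had Papln (3.11), and distal convoluted or connecting tubule had Ntn1 (4.23) and Col4a4 (3.54). In ureteric tip the largest were Itgb4 (3.49), an integrin chain of hemidesmosomes, and Frem2 (3.34).

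Outside the epithelia, Nid1, the nidogen that joins laminin to collagen IV, was higher by 4.59 in stroma, 4.90 in pericyte or mesangial cells and 4.004 in endothelium, in log2 fold changes called by edgeR. Col15a1, a collagen of vessel basement membranes, was higher by 5.88 in endothelium and 4.58 in stroma. Itga7, an integrin that binds laminin, was higher by 7.80 in smooth muscle and 5.998 in pericyte or mesangial cells. Lamc3 in smooth muscle was higher by 4.77, with 50.6 CPM in replicate 1 and 2.55 CPM in replicate 2. Nephron progenitors had Sparc (1.98) and Frem1 (1.87) as their largest rises and Col4a3 (-5.34) as their largest fall. In macrophages Itgb4 fell by 7.87 and Fras1, which anchors epithelium to mesenchyme, by 5.84.

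Members that moved together were sought over the 28 class sums, whose points share library and depth. Among the chains, Lama1 and Lamb1 had the highest Pearson correlation of log2(CPM + 1), 0.797, then Lama2 and Lama4 with 0.722, Lamb1 and Lamc1 with 0.668 and Lama5 and Lamc1 with 0.656. The lowest was -0.609 for Lama1 and Lama3. Over 10499 genes the closest to Lama5 was Bcam, a receptor of the alpha 5 chain, with r = 0.901, followed by Sox6 and Col4a5, a collagen IV chain. The closest to Lama1 was the receptor Erbb4 (r = 0.936), to Lama2 8430419K02Rik (0.970), to Lama3 the endothelial gene Cd93 (0.869) and to Lama4 Zfp57 (0.916). Lamb1 was closest to Impad1 (0.936), Lamb2 to Pls3 (0.911), Lamb3 to Fbxo22 (0.806) and Lamc1 to Map4k3 (0.874). These are descriptions over 28 sums, with no test.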

How the data were processed

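Raw UMI counts per gene and barcode were analysed as deposited, for all barcodes of 2 libraries. Per the file headers they were made with Cell Ranger 4, while the submitters' processing notes name Cell Ranger 6.0.1 and mm10; the authors' use of intronic reads and of strand is not given in the sources used here. Positions are from GENCODE M21 (GRCm38). The members and gene lists were chosen with earlier results of these data known.

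The cell filter (minimum 3000 UMIs, minimum 500 genes, maximum 20% mitochondrial UMIs) left 5529 and 4206 barcodes. Scrublet (scanpy 1.11.5) scores ranked doublets, and 245 and 142 cells were removed, 0.8% per 1000 cells. Each cell was scored on 125 markers of 18 cell types (mean scaled log level). It took the highest type at a score of at least 0.25, if the second was at most 0.75 of it and at least 3 markers were detected, and 527 cells lay near a threshold. The scoring rule was set after the files had been opened, from class sizes under 3 settings and without laminin values.

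Class sums of each library were tested with edgeR 4.0.16 (R 4.3.3; trimmed-mean scaling, filterByExpr, library as a term, two-sided quasi-likelihood F test). The fit held 28 sums with 13 residual degrees of freedom, and Benjamini-Hochberg adjustment covered 17511 genes, without 118 gate markers. SE is the log2 fold change divided by the square root of F. On simulated counts for 16421 genes (podocytes against the other classes), 78.5% of genes changed by a log2 fold of 1 and 94.7% of those changed by 2 were called, and 0.031% of unchanged genes. Replicate numbers are names in order of deposit and pair nothing beyond the library. Intervals and floors (3 counts) cover counting error only. All 9 members were named. Some results are not reported here. Partner genes named were at most the 2 called with the largest change per direction and class, and similar genes were the 3 with the highest r at a mean of at least 10 CPM. Alternatives were DESeq2 1.42.0 and its size factors, no count filter, no library term, 10000 UMIs, doubled doublet removal, a stricter gate (0.6), Leiden clusters, free RNA subtracted (6.03% and 1.28% of UMIs), at least 50 cells and, added after seeing the data, a fit without ureteric tip and smooth muscle.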

Additional observations from a re-analysis of the deposited data

How the results depend on the processing

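For the 131 called member results, 1627 alternative values were computed; 1555 kept direction and call, 67 kept direction but lost the call, and 5 reversed. Of the 67, 33 were lost when free RNA was subtracted, at 6.03% of UMIs in replicate 1 and 1.28% in replicate 2. All 5 reversals came with Leiden clusters: Lama2 in podocytes (2.19), Lama1 in podocytes (0.84), Lamc1 in intercalated cells (0.20), Lama2 in podocytes against early nephron (3.05) and Lama2 in proximal tubule against early nephron (0.62). The Leiden fit left out smooth muscle (50 and 3 cells) and took in erythroid cells (35 and 53 cells). Its mean of the other classes was therefore not that of the main fit, while the lineage comparisons do not use that mean. The podocyte share of Lamb2 was 34.24% with Leiden clusters, and 53.14 to 66.45% with 1 library left out. The cause was not tested. The share of all genes called was computed for the main fit only. The fits held 11 to 14 classes, so the number of tests differed between settings. The counts of calls ranged from 64 to 94 for members in classes, 34 to 48 for lineage comparisons and 333 to 422 for partners. Without the replicate block (the library term) they were 81, 41 and 392, so 9 member calls were lost and none reversed; same-numbered sums share a library, and the block is therefore the design. With 1 library left out, all 131 directions held, and no test was possible because no residual degrees of freedom remain. Lama2 was highest in smooth muscle with the stricter gate (481.7 against 252.9 CPM in stroma) and with Leiden clusters (781.8 against 269.3 CPM); smooth muscle of replicate 2 held 6 and 3 cells there, under the minimum of 20 used for tests. Lamb2 was highest in smooth muscle with Leiden clusters (101.3 against 86.1 CPM in podocytes, with the same 3 cells) and without replicate 1 (145.3 against 135.2 CPM).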
